A study of Homo sapiens with 22 samples.

Results

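The 10 genes described here encode subunits of the BAF complex, the mammalian SWI/SNF chromatin remodeller: SMARCA2, SMARCA4, SMARCB1, SMARCC1, SMARCC2, SMARCD1, SMARCE1, ARID1A, ARID1B and SS18. They were taken by name from the 20007 protein-coding genes of GENCODE release 44 on hg38, and every peak over a gene body or within 10 kb to either side of it was assigned to that gene. All 10 genes had peaks. Across the lists, the gene windows held 6 ETS1 regions, 236 H3K27ac regions and 30 H3K4me3 regions, where a region is a stretch of overlapping peaks from the lists of an antibody.

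The cells were TC-32, an established Ewing sarcoma line. In the siNEG arm they were reverse transfected with a control siRNA, and in the siFLI1 arm with one directed at FLI1, each at 20 nM. Ewing sarcomas are driven by a fusion of EWSR1 with an ETS-family gene, most often FLI1; the labels do not say which part of FLI1 the siRNA targets. Chromatin was immunoprecipitated with an antibody to the transcription factor ETS1 from Cell Signaling, to H3K27ac (acetylation of active promoters and enhancers) from Active Motif, or to H3K4me3 (methylation of promoters) from EpiCypher, with 2 libraries per antibody and arm, and with a further H3K27ac antibody labelled ab4729 with 1 library per arm. The level of FLI1 or of the fusion was not measured by these lists, so the depletion could not be checked here, and nothing here measures the RNA or protein of a BAF subunit.

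BAF complexes use an ATPase, SMARCA2 or SMARCA4, to slide and evict nucleosomes. A core of SMARCB1, SMARCC1, SMARCC2, SMARCD and SMARCE1 subunits holds the complex together, ARID1A or ARID1B marks the canonical form, and SS18 is an accessory subunit best known from the fusion that drives synovial sarcoma. In Ewing sarcoma the EWSR1::FLI1 protein binds runs of the tetranucleotide GGAA and has been described as bringing BAF complexes to them.

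The lists held 208 to 2635 peaks for ETS1, 60027 to 65501 for H3K27ac, 18344 to 19720 for H3K4me3, and 32738 (siNEG) and 51663 (siFLI1) for ab4729. Summit counts of the paired ETS1 lists from siFLI1 cells differed by less than the sampling noise (chi-square per degree of freedom 0.417 over 496 regions), and peak names in list 1 carry the number 2. They were counted as 1 sample, so ETS1 was not tested between arms. Over the 30 regions of at least 100 summed tags this pair gave 0.584, and the siNEG ETS1 pair gave 0.814 over 80 regions. The siFLI1 H3K27ac pair gave 0.939 over 19939 regions of 50 to 500 summed tags (lower-tail chi-square p = 2.4e-10). It gave 1.08 over the 6318 regions of at least 100, and it was kept as 2 samples. The other H3K27ac and H3K4me3 pairs gave 1.07 to 1.18. All 5 Ewing markers examined (CD99, NKX2-2, NR0B1, STEAP1 and CCND1) had H3K27ac and H3K4me3 peaks within 1 kb of a transcription start site (TSS) in all 4 lists. PTPRC, CD3E, KRT5 and ALB had none. The epithelial marker EPCAM had H3K27ac in 4 lists and H3K4me3 in 1. The labels do not say whether replicates came from separate cultures, and p-values measure only the spread between these libraries.

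The sequences that carry the main results lie at 2 places, read from hg38 on the plus strand. The first is the SMARCA2 promoter, where the strongest ETS1 peak at any BAF gene was found. The 300 bases before the first annotated start of this promoter (chr9:2014886-2015185) are shown with GGAA or TTCC in capitals, followed by 30 bases of the exon that begins there (chr9:2015212-2015241) with the ETS-family motif in capitals.
SMARCA2 upstream: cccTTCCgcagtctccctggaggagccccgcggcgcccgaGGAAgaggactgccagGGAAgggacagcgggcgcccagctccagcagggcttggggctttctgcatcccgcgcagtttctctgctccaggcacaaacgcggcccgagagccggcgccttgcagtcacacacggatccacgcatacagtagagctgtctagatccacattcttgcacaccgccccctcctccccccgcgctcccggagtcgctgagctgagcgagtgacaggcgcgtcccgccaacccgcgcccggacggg
SMARCA2 motif: ctgcggcgcgtCTTCCGGcgcccgcggagg
The second is a run of 13 GGAA units, in capitals, in an intron of SMARCC1 (chr3:47663154-47663325, with 60 bases to each side), beside the H3K27ac summit that fell most.
SMARCC1 repeat: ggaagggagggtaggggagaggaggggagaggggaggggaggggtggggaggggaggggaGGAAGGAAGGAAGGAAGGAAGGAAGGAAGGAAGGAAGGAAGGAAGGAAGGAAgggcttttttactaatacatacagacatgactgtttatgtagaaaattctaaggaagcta

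Calls at the BAF genes went in both directions. The largest change in summit height at any of them was at the SMARCC1 intronic repeat, where H3K27ac fell in siFLI1 cells. ARID1B gained H3K27ac along its introns. SMARCA2 carried an ETS1 promoter peak in the siFLI1 lists and none in the siNEG lists, and this peak was known when the genes were chosen. Most other promoter changes did not pass the test. Of 236 H3K27ac regions in member windows, 42 were in all 4 lists, 14 were gained (in both siFLI1 lists and neither siNEG list) and 8 were lost (the opposite). The gained share was 5.93% beside 8.19% of all merged H3K27ac regions, and the lost share was 3.39% beside 4.86%. Of 30 H3K4me3 regions, 17 were in all 4 lists, 0 were gained (2.17% of all regions were) and 1 was lost (2.83% of all regions were). These shares lie near or below those of all regions and are no result about the BAF genes as a group. With a list left out, the H3K27ac counts rest on the remaining list of that arm: gained regions were 25 without siNEG replicate 1 and 51 and 61 without siFLI1 replicate 1 or 2, and lost regions were 44 and 40 without siNEG replicate 1 or 2 and 13 without siFLI1 replicate 2.

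Covered length, the number of base pairs of a gene window under peaks, was fitted for each mark with limma over all genes with a peak in at least 2 of 4 lists. For H3K27ac, 2 of 10 members were called higher in siFLI1 cells, beside 8.34% of 14033 genes, and 1 was called lower, beside 8.68%. Without either siFLI1 library, 1 member (SMARCC1) was called. The median log2 change was 0.13 over the members and -0.01 over all genes tested. Before libraries were centred on their medians, siFLI1 lists covered more by 0.23 on the log2 scale at the median gene, and without centring 1522 genes were higher and 450 lower, against 1170 and 1218 with it. For H3K4me3, 0 of 10 members were called in either direction, beside 5.47% of 14401 genes higher and 3.76% lower. Before adjustment, limma put 2 of the 10 under 0.05, SMARCB1 and SMARCC1, both lower. The shift at the median gene was -0.10 for this mark, and without centring 480 genes were higher and 1253 lower, against 788 and 542.

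**Figure D1:**
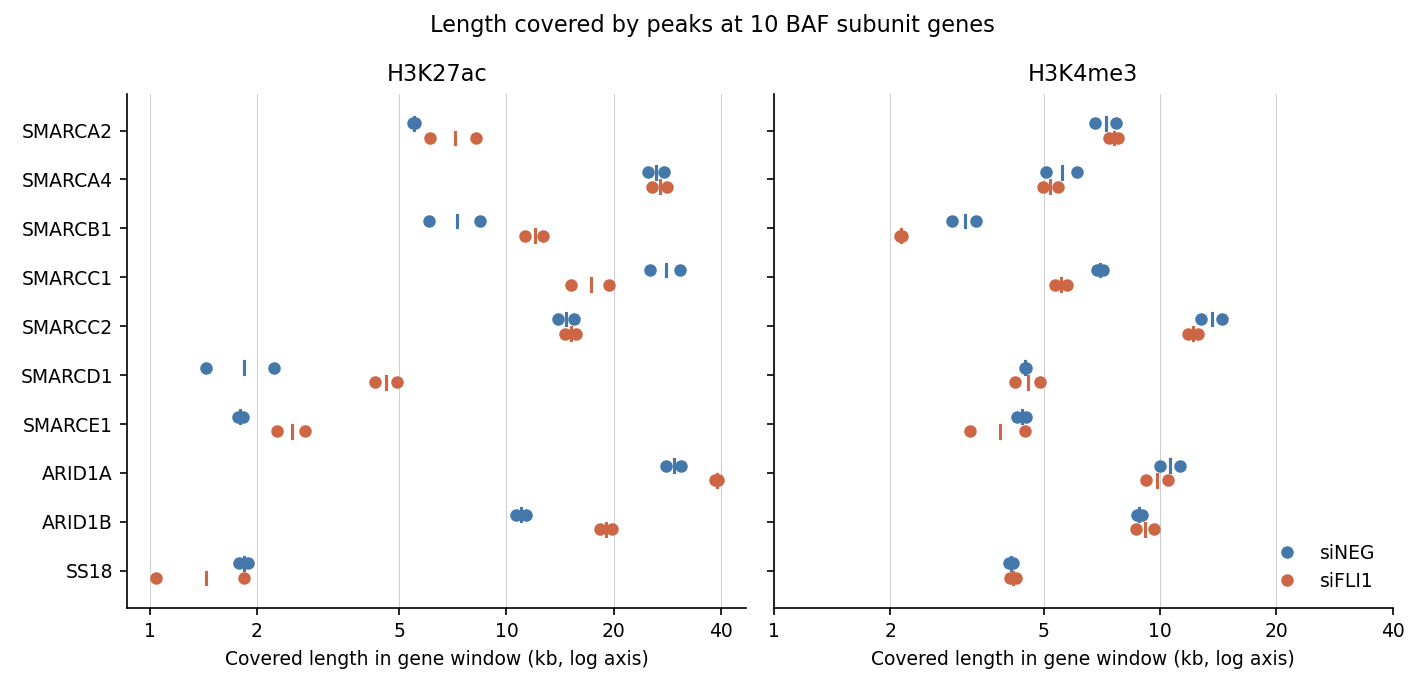
Length of each gene window covered by peaks (kb, log axis) for the 10 BAF subunit genes, H3K27ac on the left and H3K4me3 on the right; each dot is a library and the short line is the mean of the 2 libraries of an arm. For H3K27ac the siFLI1 dots lie left of the siNEG dots at SMARCC1 and right of them at SMARCD1 and ARID1B, the 3 genes called, while the H3K4me3 dots lie close together at most genes.

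Summit height was used as a second measure. The number of tags at a peak's summit was recovered from the deposited fold and p-value, and scaled so that the median region was equal between libraries, for regions present in all 4 lists; the highest summit of a wide region need not be the same one in every library. Of 42 such H3K27ac regions at the members, 5 were called higher (11.9%, beside 14.6% of 22724 regions) and 5 lower (11.9%, beside 16.4%). Of 17 such H3K4me3 regions, 4 were called higher (23.5%, beside 16.7% of 12980 regions) and 3 lower (17.6%, beside 17.4%). The median log2 change over the members' regions was -0.04 for H3K27ac and 0.06 for H3K4me3, and -0.01 over all regions for both marks. Without siFLI1 replicate 1 or 2, 6 and 5 H3K27ac regions of the members were called, and without siFLI1 replicate 2, 4 H3K4me3 regions. Without centring, 2571 H3K27ac regions of the whole set were higher and 2584 lower, and 1241 H3K4me3 regions were higher and 1620 lower.

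**Figure D2:**
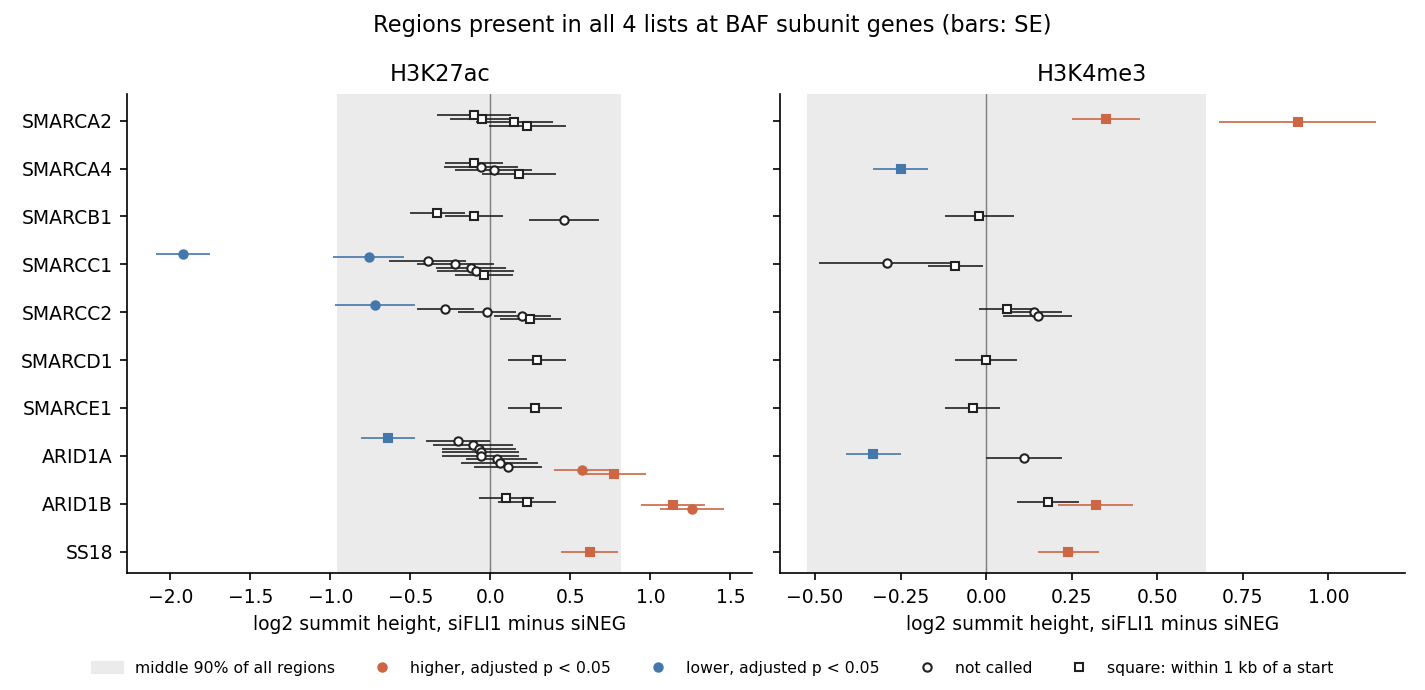
Difference in log2 summit height (siFLI1 minus siNEG) for regions present in all 4 lists at each BAF gene, leaving out those at the far end of the SMARCA4 window, with its standard error; filled symbols passed the limma test, squares lie within 1 kb of a start of the gene, and the grey band holds the middle 90% of all regions (-0.95 to 0.81 for H3K27ac and -0.52 to 0.64 for H3K4me3). The SMARCC1 region at -1.92 lies far left of the band, the ARID1B regions at 1.26 and 1.14 lie right of it, and most open symbols lie near 0. The regions left out are not reported here but are included in the counts of called regions in the text.

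SMARCA2 encodes BRM, the ATPase that takes the place of SMARCA4 in part of the BAF complexes (chr9:1980290-2193624, plus strand). Its promoter held an ETS1 peak in both siFLI1 lists, of 1633 and 2635 peaks, and in neither siNEG list, of 302 and 208 peaks. The siNEG lists are far shorter, so absence from them does not show how much ETS1 was there. The peak's fold over background was 11.4 in list 1 and 16.3 in list 2, from 36 and 39 tags at the summit over backgrounds of 2.24 and 1.45 tags. It ranked 71 of 1633 and 58 of 2635 by fold, and its summits lay 79 and 46 bp from an annotated start. No other BAF gene had an ETS1 peak above the 51.6th percentile of its list by fold. The ETS motif CCGGAAA or CCGGAAG, searched on both strands, occurred once in the region, at chr9:2015223-2015229, 116 and 83 bp downstream of the summits; the letters on the plus strand are those in capitals above. A motif lay within 150 bp of the summit in 17.6% and 19% of all peaks of the siFLI1 lists.

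Among 1353 promoter regions with ETS1 in both siFLI1 lists, ordered by the mean of their fold ranks, SMARCA2 was at position 47. Directly above it stood BCL2L2 (fold 11.6 and 16.6) and SAE1 (13.1 and 14.7), and directly below it KIAA2026 (12.8 and 14.7) and ZNF687 (11.9 and 15.5). The measure of likeness was this rank over 2 lists alone. The SMARCA2 peak was known when the genes were chosen, so its ranks are a description. BCL2L2, like SMARCA2, had no peak in a siNEG list. SAE1 and ZNF687 had peaks in both siNEG lists (fold 11 and 10, and 9.22 and 7.07), and KIAA2026 had a peak in 1 of them (5.77).

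**Figure D3:**
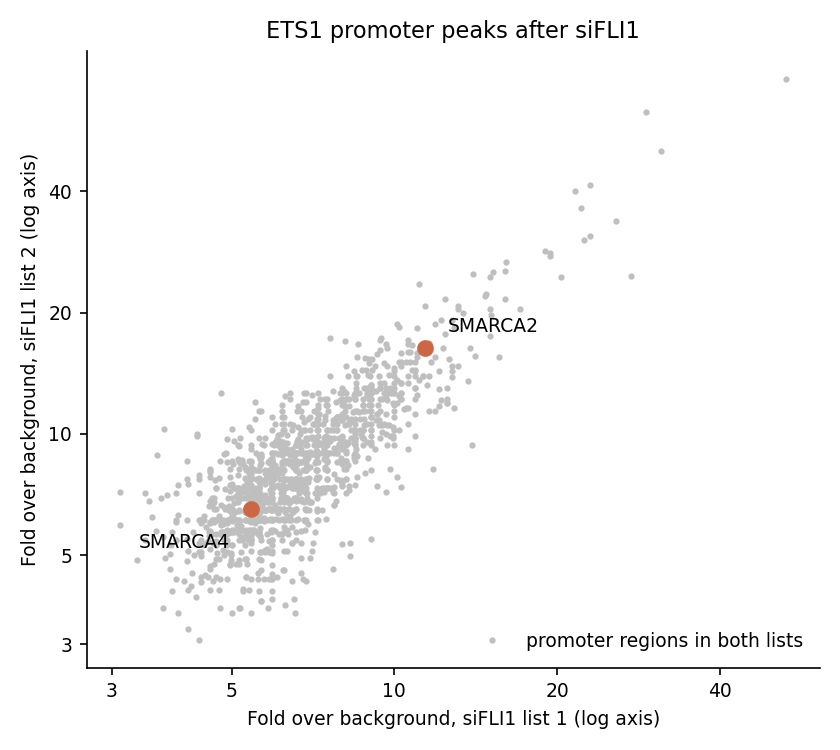
Fold over background of the 1353 promoter regions with an ETS1 peak in both siFLI1 lists, list 1 against list 2 on log axes, as the authors' lists give it. SMARCA2 (11.4 and 16.3) lies in the upper right part of the cloud and SMARCA4 (5.43 and 6.52) in the lower left part.

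The H3K4me3 region over the SMARCA2 promoter (chr9:2013411-2020185) had scaled summit heights of 199 and 230 tags in siNEG and 268 and 278 tags in siFLI1 cells. All siFLI1 values were above all siNEG values, and the log2 change of 0.35 (SE 0.10) passed limma's test with an adjusted p of 0.00152; the call was lost without siNEG replicate 1 (0.25, adjusted p = 0.0765) and without centring (0.30, adjusted p = 0.0694). A weaker H3K4me3 region at internal starts of SMARCA2 (chr9:2157841-2159311) had heights of 27.5 and 25.2 tags in siNEG and 51.1 and 49.8 tags in siFLI1 cells. It rose by 0.91 (SE 0.23, adjusted p = 4.0e-04), which ranked 258 from the highest of 12980 regions. H3K27ac was not called at either place. The 3 low H3K27ac regions over the first promoter changed by -0.10, 0.23 and 0.15 (adjusted p = 0.782, 0.512 and 0.695), and the highest H3K27ac promoter region, at the same internal starts (chr9:2156805-2160313), had heights of 42.1 and 44.4 against 35.9 and 48.6 tags (log2 change -0.05, SE 0.20, adjusted p = 0.887). Covered length of H3K27ac was 5487 and 5532 bp in siNEG and 8215 and 6098 bp in siFLI1 cells, which was not called (0.10, SE 0.17, adjusted p = 0.742). A small H3K27ac region (chr9:2180377-2180881, fold 5.40 and 5.58) was gained 352 bp from another internal start, and an intronic region (chr9:2026817-2027450, fold 2.95 and 3.46) was lost.

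SMARCA4 encodes BRG1, the other ATPase (chr19:10960932-11079426, plus strand). Its promoter also held ETS1 in both siFLI1 lists and in neither siNEG list (chr19:10960941-10961386), but low in both: fold 5.43 and 6.52, from 20 and 15 tags, at ranks 1173 of 1633 and 1369 of 2635. No copy of the motif lay within 150 bp of either summit. With equal numbers of the strongest peaks taken from every list, this peak was not kept, and SMARCA2 alone remained. The strong ETS1 peak of SMARCA2 was known when these genes were chosen, so the following share is a description and nothing is read from it. ETS1 in both siFLI1 lists was found at 2 of 10 members (20.0%), beside 10.8% of all protein-coding genes and 15.9% of the 12584 genes with H3K4me3 near a TSS in all 4 lists. In both siNEG lists it was found at 0 members, beside 1.05% of all genes.

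H3K4me3 height at the SMARCA4 promoter (chr19:10959544-10964406) was 387 and 405 tags in siNEG and 355 and 311 tags in siFLI1 cells. It fell by 0.25 (SE 0.08, adjusted p = 0.0107); the call was lost without siNEG replicate 2 (adjusted p = 0.0923), without siFLI1 replicate 2 (-0.16, adjusted p = 0.307) and without centring (adjusted p = 0.0773). H3K27ac height there was 81.7 and 65.5 against 65.5 and 70.6 tags, with overlapping arms (log2 change -0.10, SE 0.18, adjusted p = 0.712). Covered H3K27ac length was 24900 and 27696 bp against 28249 and 25497 bp and was not called (-0.20, SE 0.11, adjusted p = 0.273); without siNEG replicate 1 it passed (-0.34, adjusted p = 0.0437), and without centring its sign turned (0.03). Of the 3 gained H3K27ac regions, the one with the highest fold in any single list lay upstream of the gene (chr19:10954216-10954821, fold 3.75 and 6). A siNEG replicate 2 peak lay directly beside it (chr19:10954905-10955297, fold 4.17). Another gained region lay in an intron (chr19:10969706-10970763, fold 4.26 and 5.69). The lost region lay in an intron (chr19:11069313-11070329, fold 3.75 and 4.27). With ab4729 this region had a peak in both arms (fold 5.54 in siNEG and 4.19 in siFLI1 cells). Called regions at the far end of the SMARCA4 window are counted above but not reported here.

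SMARCC1 encodes BAF155, a scaffold of the core (chr3:47585269-47782106, minus strand). At 115 kb from its 5' end, an H3K27ac region of 7.0 kb over exon and intron sequence (chr3:47660144-47667191) ranked 17 of 60027 and 49 of 60401 peaks by fold in the siNEG lists. In the siFLI1 lists it ranked 4089 of 65501 and 3760 of 61481. Fold was 66.1 and 40.1 in siNEG and 14.3 and 14.7 in siFLI1 cells, and scaled summit heights were 280 and 205 against 61.0 and 64.2 tags. The arms were far apart. Height fell by 1.92 on the log2 scale (SE 0.17, adjusted p = 3.9e-26), a 3.79-fold difference that ranked 125 from the lowest of 22724 regions. The call held without each library in turn, without centring and with the replicate block. With ab4729 the region's fold was 17 in siNEG and 8.84 in siFLI1 cells, and its height changed by -0.83, the 4.81st percentile of 20892 regions shared by those 2 lists; with 1 library per arm this has no test.

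The region contains the 13-unit GGAA repeat. The highest summits lay 515 and 519 bp from the repeat's centre in siNEG and 511 and 421 bp in siFLI1 cells, all on the same side. In siNEG replicate 1 a single peak ran across the repeat; in the other 3 lists the nearest peak edge was 39, 38 and 18 bp from it. Within 15 kb of the repeat, H3K27ac peaks covered 12188 and 13367 bp in siNEG and 6961 and 6775 bp in siFLI1 cells. The adjoining regions chr3:47667479-47668466 (fold 2.95 and 4.07) and chr3:47668682-47670545 (fold 5.06 and 5.97) were lost. The 1 H3K4me3 region lost at any BAF gene was also here (chr3:47660055-47661299, fold 3.03 and 3.64); with a 50% overlap or equal numbers of peaks it was no longer counted as lost. The nearest ETS1 peaks were 425752 and 425799 bp away in the siFLI1 lists and farther in the siNEG lists.

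**Figure D4:**
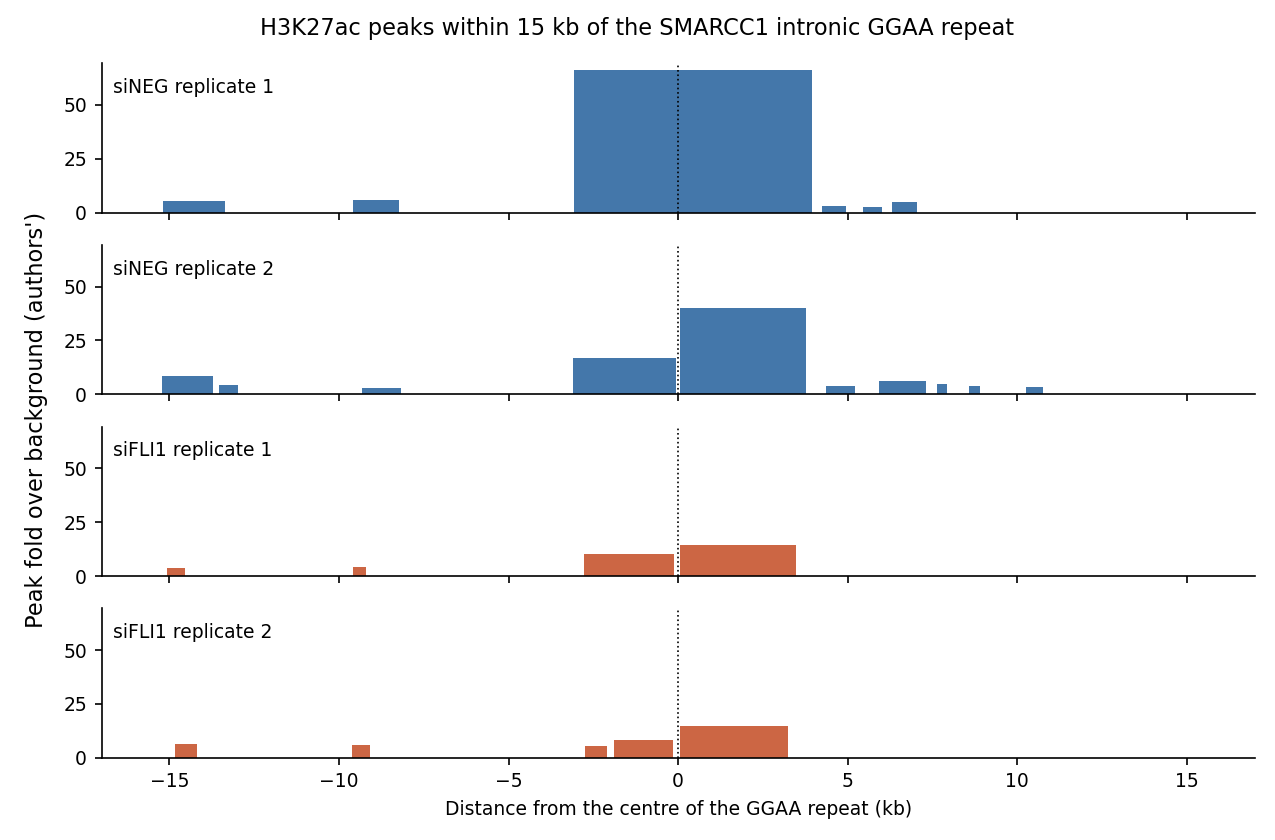
H3K27ac peaks within 15 kb of the centre of the SMARCC1 intronic GGAA repeat (dotted line), drawn at their width and with the authors' fold over background as height, for the 2 siNEG and the 2 siFLI1 libraries on the same axes. The peaks beside the repeat reach 66.1 and 40.1 in siNEG and 14.3 and 14.7 in siFLI1 cells, and the small peaks to the right of it are absent from the siFLI1 lists.

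H3K27ac regions of the whole series were grouped by the longest repeat they hold, the SMARCC1 region included. Of 328 regions in all 4 lists with a repeat of 10 units or more, 289 (88.1%) were called lower and 3 higher, with a median log2 change of -1.39. Of 242 regions with 4 to 9 units, 112 (46.3%) were called lower and 17 higher. Of 22154 regions without a repeat, 3336 (15.1%) were called lower and 3287 higher. The SMARCC1 region (-1.92) lies beyond the median of the first class.

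**Figure D5:**
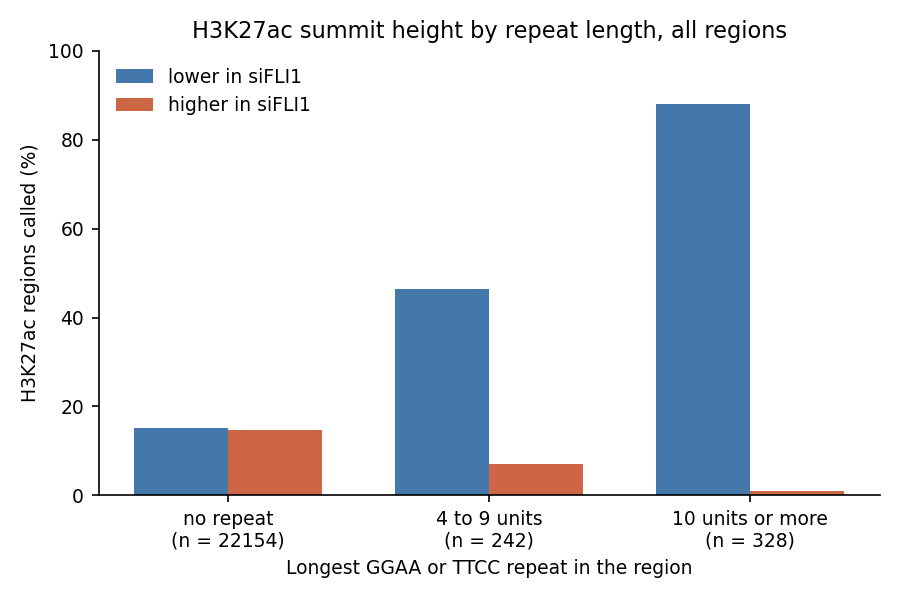
Share of H3K27ac regions present in all 4 lists that were called lower or higher in siFLI1 cells (bars, in %, from 0), by the longest GGAA or TTCC repeat inside the region. The share called lower is 15.1% without a repeat, 46.3% with 4 to 9 units and 88.1% with 10 units or more, the class of the SMARCC1 region.

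Away from the repeat, the SMARCC1 promoter was not called. A second intronic region (chr3:47648022-47650272) had heights of 35.1 and 44.4 against 19.7 and 26.6 tags and was called lower (-0.76, SE 0.22, adjusted p = 0.00374), a call lost without siNEG replicate 2 (adjusted p = 0.0776) and without siFLI1 replicate 1 (adjusted p = 0.162). The SMARCC1 promoter had H3K27ac heights of 87.8 and 75.0 against 72.7 and 85.3 tags (-0.04, SE 0.18, adjusted p = 0.885) and H3K4me3 heights of 349 and 388 against 350 and 343 tags (-0.09, SE 0.08, adjusted p = 0.455). The arms overlapped for both marks. Covered H3K27ac length over the whole window was 25290 and 30612 bp in siNEG and 19328 and 15196 bp in siFLI1 cells, and it fell by 0.92 (SE 0.15, adjusted p = 0.00799), a call that held under every alternative run. SMARCC1 held 5 of the 8 H3K27ac regions lost at BAF genes, a count over all members that was 3 with the stricter peak threshold. SMARCC1 also gained 2, the one of higher fold 2118 bp from a start (chr3:47779300-47779763, fold 4.66 and 4.22). A siNEG replicate 1 peak lay directly beside that region (chr3:47779003-47779291, fold 3.82).

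SMARCC2 encodes BAF170, the partner scaffold (chr12:56162359-56189567, minus strand). It gained and lost no H3K27ac or H3K4me3 region. Promoter H3K27ac height was 48.3 and 53.9 tags in siNEG and 68.2 and 54.1 tags in siFLI1 cells (0.25, SE 0.19, adjusted p = 0.344), and promoter H3K4me3 height was 409 and 420 against 444 and 418 tags (0.06, SE 0.08, adjusted p = 0.633). The arms overlapped for H3K4me3 and nearly met for H3K27ac. A low H3K27ac region in the window beyond the gene's 3' end (chr12:56153894-56156189), nearest to the TSS of MYL6B, was called lower (-0.72, SE 0.25, adjusted p = 0.0145; 24.5 and 30.7 against 17 and 15.6 tags), but not without siNEG replicate 2 (adjusted p = 0.0832) or either siFLI1 library (adjusted p = 0.0781 and 0.144).

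SMARCB1 encodes INI1, the core subunit lost in malignant rhabdoid tumours (chr22:23786931-23838009, plus strand). Covered H3K27ac length was 8419 and 6086 bp in siNEG and 11302 and 12675 bp in siFLI1 cells. The arms did not overlap, but the change missed the threshold (0.47, SE 0.16, adjusted p = 0.0849) and passed it without siNEG replicate 1 (0.63, adjusted p = 0.0388). Covered H3K4me3 length went the other way, from 2894 and 3343 bp to 2142 and 2116 bp, and was not called (-0.36, SE 0.12, adjusted p = 0.0923) except without centring (-0.46, adjusted p = 0.0442). Promoter heights were 148 and 107 against 96.0 and 104 tags for H3K27ac (-0.33, SE 0.17, adjusted p = 0.137; -0.57 and adjusted p = 0.0045 without siNEG replicate 2) and 240 and 241 against 228 and 246 tags for H3K4me3 (-0.02, SE 0.10, adjusted p = 0.894). The 3 gained H3K27ac regions had folds of 3.67 to 5.18, with the highest at chr22:23830223-23830642, an intronic position nearest to the TSS of DERL3. Another, chr22:23820960-23821633, lay directly beside a siNEG replicate 2 peak (chr22:23821668-23822015, fold 3.6).

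SMARCD1 encodes BAF60A, a core subunit that contacts transcription factors (chr12:50085200-50100707, plus strand). Its covered H3K27ac length rose from 1438 and 2233 bp in siNEG to 4923 and 4277 bp in siFLI1 cells (0.91, SE 0.25, adjusted p = 0.0442). The arms did not overlap. The call stood at the edge of the threshold and was lost over the gene body alone (0.84, adjusted p = 0.164), with a pseudocount of 100 bp (1.05, adjusted p = 0.0769), without siNEG replicate 1 (0.60, adjusted p = 0.101) and without either siFLI1 library (adjusted p = 0.175 and 0.124). The gained regions were low, upstream of the start (chr12:50083181-50083911, fold 3.71 and 4.56) and at the far end of the window, nearest to the TSS of COX14 (chr12:50109922-50111167, fold 4.66 and 5.18). Promoter heights were 72.9 and 57.1 against 87.0 and 71.5 tags for H3K27ac (0.29, SE 0.18, adjusted p = 0.234) and 314 and 311 against 313 and 311 tags for H3K4me3 (0.00, SE 0.09, adjusted p = 0.995). Fold over background of this H3K4me3 region differed, at 60.9 and 59.3 in siNEG and 25.7 and 36.4 in siFLI1 cells, and was not tested. An ETS1 peak at its promoter was in siFLI1 list 2 alone (chr12:50085198-50085373, fold 6.81, 18 tags).

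SMARCE1 encodes BAF57, a core subunit with a DNA-binding HMG domain (chr17:40624962-40648654, minus strand). No change at SMARCE1 passed the test. It held 1 H3K27ac region, at the promoter, of 128 and 99.3 tags in siNEG and 122 and 154 tags in siFLI1 cells (0.28, SE 0.17, adjusted p = 0.227); without siNEG replicate 1 this passed (0.46, adjusted p = 0.0200). H3K4me3 heights were 420 and 424 against 421 and 398 tags (-0.04, SE 0.08, adjusted p = 0.722). Covered H3K27ac length was 1828 and 1767 against 2271 and 2734 bp (0.15, SE 0.22, adjusted p = 0.709). SMARCE1 and SMARCA2 were the only members with the ETS motif in a RefSeq promoter (GRCh38.p14; 250 bases before to 50 after a start), among 14 promoters listed for 8 of the 10 members; 13.4% of all 35116 listed promoters held it. SMARCE1 had no ETS1 peak in any list.

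ARID1A encodes BAF250A, the targeting subunit of canonical BAF (chr1:26693236-26782104, plus strand). Its promoter had the tallest H3K4me3 among the members in siNEG cells, with heights of 506 and 535 tags in siNEG and 404 and 421 tags in siFLI1 cells (chr1:26692023-26701745). It fell by 0.33 (SE 0.08, adjusted p = 2.7e-04), and the call held without each library and without centring. The H3K27ac domain over the same promoter, 15.3 kb wide (chr1:26690481-26705780), went from 228 and 233 to 139 and 157 tags (-0.64, SE 0.17, adjusted p = 0.00135), but the call was lost without siFLI1 replicate 1 (adjusted p = 0.204) or 2 (adjusted p = 0.0714) and without centring (adjusted p = 0.117). The ab4729 heights of that domain, 72.9 tags in siNEG and 73.9 in siFLI1 cells, gave a change of -0.06 after centring (45.5th percentile), so the fall in height was not seen with that antibody. Its fold over background there was 21.3 in siNEG and 15.1 in siFLI1 cells, with 1 library per arm. With the Active Motif antibody, fold overlapped between arms, at 16.3 and 30.7 in siNEG and 22.2 and 19.7 in siFLI1 cells.

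Towards the 3' end of ARID1A H3K27ac went up instead. The region at an internal start (chr1:26770006-26774565) rose from 35.1 and 33.9 to 53.8 and 66.0 tags (0.77, SE 0.20, adjusted p = 7.8e-04; 0.63 and adjusted p = 0.0849 without siFLI1 replicate 2). The region beyond the gene, nearest to PIGV (chr1:26784268-26789344), rose from 120 and 91.9 to 165 and 147 tags (0.57, SE 0.17, adjusted p = 0.00564), and lost its call without siNEG replicate 2 (adjusted p = 0.0514), without either siFLI1 library (adjusted p = 0.206 and 0.0677) and without centring (adjusted p = 0.0945). ARID1A gained and lost no region. Its covered H3K27ac length, 30771 and 27995 bp in siNEG and 39190 and 38442 bp in siFLI1 cells, was called only without centring (0.17, SE 0.08, adjusted p = 0.219 with it; 0.40, adjusted p = 0.0278 without it). An ETS1 peak at the promoter was in siFLI1 list 1 alone (chr1:26695443-26696294, fold 4.49, 25 tags).

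ARID1B encodes BAF250B, which takes the place of ARID1A (chr6:156776020-157210779, plus strand). Covered H3K27ac length went from 11310 and 10611 bp in siNEG to 19808 and 18228 bp in siFLI1 cells, well outside the spread within arms (0.54, SE 0.11, adjusted p = 0.0145); without siFLI1 replicate 1 or 2 the change stayed at 0.51 and 0.56 but missed the threshold (adjusted p = 0.116 and 0.0859). The largest gains in height at any BAF gene lay deep in the gene. The intronic region chr6:157142769-157146371 rose from 29.8 and 28.6 to 69.1 and 73.3 tags (1.26, SE 0.20, adjusted p = 7.1e-09), rank 255 from the highest of 22724. Its neighbour at an internal start, chr6:157147935-157150010, rose from 27.2 and 39.1 to 67.3 and 79.7 tags (1.14, SE 0.20, adjusted p = 1.0e-07), rank 373. Both calls held without each library and without centring.

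ARID1B also gained 3 intronic H3K27ac regions, the strongest at chr6:156844634-156846136 with fold 6.11 and 6.41, and lost none. Its 5' promoter had H3K4me3 heights of 299 and 297 tags in siNEG and 346 and 331 tags in siFLI1 cells, which did not pass (0.18, SE 0.09, adjusted p = 0.0856), and H3K27ac heights of 68.5 and 79.2 against 87 and 86.2 tags (0.23, SE 0.18, adjusted p = 0.348). An internal promoter (chr6:157020145-157022262) rose in H3K4me3 from 166 and 166 to 199 and 216 tags (0.32, SE 0.11, adjusted p = 0.0130), a call lost without siFLI1 replicate 2 (adjusted p = 0.185) and without centring (adjusted p = 0.123). H3K27ac over that internal promoter was 147 and 142 against 151 and 158 tags (0.10, SE 0.17, adjusted p = 0.720). Low ETS1 peaks lay 117 and 153 bp from starts of these promoters in siFLI1 list 2 alone, at chr6:156777465-156777621 (fold 6.12) and chr6:157022073-157022227 (fold 5.30).

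SS18 (chr18:26016253-26091217, minus strand) was the 1 member with both promoter marks called higher. H3K27ac rose from 65.0 and 46.5 tags in siNEG to 83.4 and 86.2 tags in siFLI1 cells (0.62, SE 0.18, adjusted p = 0.00399), and H3K4me3 from 274 and 272 to 313 and 333 tags (0.24, SE 0.09, adjusted p = 0.0207). The H3K27ac call was lost without siNEG replicate 2 (adjusted p = 0.139) and without siFLI1 replicate 2 (adjusted p = 0.0683). The H3K4me3 call was lost without siNEG replicate 1 (adjusted p = 0.0546), siNEG replicate 2 (adjusted p = 0.0796) or siFLI1 replicate 2 (adjusted p = 0.207) and without centring (adjusted p = 0.281). With ab4729 the promoter had fold 11.2 in siNEG and 22.5 in siFLI1 cells and a change of 0.66, the 93.1st percentile. Covered H3K27ac length did not follow the height: it was 1885 and 1786 against 1842 and 1040 bp (-0.53, SE 0.27, adjusted p = 0.220), and an intronic region was lost (chr18:26040313-26040837, fold 3.48 and 4.50).

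In the order of promoter height in siNEG cells, H3K4me3 ran from ARID1A through SMARCE1, SMARCC2, SMARCA4, SMARCC1, SMARCD1, ARID1B, SS18 and SMARCB1 to SMARCA2. Of the 9 neighbouring pairs, 7 had ranges of their 2 libraries that did not meet, and SMARCE1 with SMARCC2 and SMARCA4 with SMARCC1 were the pairs whose ranges met. For H3K27ac the order ran from ARID1A through ARID1B, SMARCB1, SMARCE1, SMARCC1, SMARCA4, SMARCD1, SS18 and SMARCC2 to SMARCA2, and 3 of the 9 neighbouring pairs had ranges that did not meet. Each order used the highest promoter region of a gene. For H3K27ac this lay at internal starts of ARID1B (147 and 142 tags) and SMARCA2 (42.1 and 44.4 tags). For H3K4me3 it lay at the 5' promoter of ARID1B and at the SMARCA2 promoter with the ETS1 peak. The 5' promoter of ARID1B had H3K27ac heights of 68.5 and 79.2 tags.

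Of 21 other SWI/SNF subunits, a list also chosen with results known, 16 had an H3K27ac promoter region in all 4 lists, of which 4 were called higher and 1 lower, and 20 had an H3K4me3 promoter region, of which 0 were called higher and 6 lower. Over all coding genes the shares were 16.5% higher and 10.8% lower for H3K27ac promoters and 15% higher and 18.6% lower for H3K4me3 promoters. Counting only the highest promoter region of each gene, as in these shares, the members had 1 called in each direction for H3K27ac and 2 in each direction for H3K4me3, out of 10; called regions at other starts of ARID1A, ARID1B and SMARCA2 are not in that count. PBRM1, the bromodomain subunit of the PBAF form, and BRD9, the bromodomain subunit of the non-canonical form, were called higher for H3K27ac (0.56, adjusted p = 0.0159, and 0.69, adjusted p = 0.00115) and lower for H3K4me3 (-0.41, adjusted p = 3.4e-05, and -0.27, adjusted p = 0.00635). ACTL6A, an actin-like subunit, was lower for both (-0.92, adjusted p = 3.9e-05, and -0.24, adjusted p = 0.0428). BCL7C (0.58, adjusted p = 0.00471) and SS18L1 (0.46, adjusted p = 0.0283) were higher for H3K27ac. SMARCD2 (-0.26, adjusted p = 0.00769), DPF3 (-0.54, adjusted p = 1.6e-04) and BCL11B (-0.41, adjusted p = 1.2e-05) were lower for H3K4me3. By covered length 1 of 18 was called lower for H3K27ac, beside 8.68% of all genes, and 4 of 20 for H3K4me3, beside 3.76%; none was called higher for either mark. BCL11B was lower for H3K27ac (-0.35, adjusted p = 0.0193), and BCL11B (-0.34, adjusted p = 0.0158), PBRM1 (-0.32, adjusted p = 0.0319), BRD9 (-0.32, adjusted p = 0.0424) and BICRA (-0.26, adjusted p = 0.0409) were lower for H3K4me3. ETS1 was in both siFLI1 lists at 3 of these 21 genes, BCL7B (fold 6.42 and 8.39), BCL7C (9.71 and 12.1) and BICRA (6.88 and 8.97), and in both siNEG lists at 0. The peak counted for BCL7C is nearest to the TSS of its neighbour CTF1. Among 14 remodellers of the ISWI, CHD and INO80 families it was in both siFLI1 lists at 6. The share over all protein-coding genes was 10.8%, and differences between these lists were not tested.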

How the data were processed

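Peak lists of 14 chromatin immunoprecipitation libraries from TC-32 cells were analysed; 8 input libraries are not analysed here. The authors deposited 1 list per library, not lists of pooled replicates. Per the submitters' processing notes, cutadapt 4.4, BWA 0.7.17, Picard 2.17.11 and MACS2 2.1.1 and the builds GRCh38 (hg38) and dm6 were used; their roles and settings are not given in the sources used here. No H3K4me3 peak ran past an hg38 chromosome end, and 74.2% to 79.4% of H3K4me3 peaks lay within 1 kb of a GENCODE release 44 TSS. The deposited ratio column is the authors' fold over background, the deposited −log10 columns are the authors' p-value and q-value, and the deposited score column was not used. Fold values describe and rank peaks within a list.

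Peaks sharing at least 1 bp were merged, so a gained or lost region can lie directly beside a peak of the other arm. Covered length was fitted as log2(bp + 500) with limma 3.58.1 (trend, robust; R 4.3.3) on median-centred values, with Benjamini-Hochberg adjustment at 0.05 over all genes tested. Summit tags were recovered from fold and p by the MACS2 formulas (whole to within 0.05 tags for 92.5% to 100% of peaks of up to 45 tags), and log2(tags + 1) was fitted likewise; this measure was chosen after seeing the data, and 4 H3K4me3 regions without a recovered height were left out. Read depths are not stated; summit tags carry the precision. Tested on simulated data, the fit recovered 56.5% (H3K27ac, 14033 genes) and 93.0% (H3K4me3, 14401 genes) of 200 genes changed by 2 on the log2 scale. The replicate numbers share only a number. Members and lists were chosen with earlier results of these data known. Named genes were all members, other subunits called or with ETS1 in both lists of an arm, the 2 genes above and 2 below SMARCA2 by ETS1 rank, every ETS1 region, promoter regions, and the gained and lost regions of highest fold; called regions were added, apart from those not reported here. Alternatives were stricter peaks (−log10 q of at least 5), equal numbers of peaks, gene bodies only, a 50% overlap, a promoter rule for ETS1, a pseudocount of 100 bp, no filter, no centring, a replicate block and leaving out each library. Python 3.11.15 and numpy 2.4.6 were used. Some regions and sequences in the SMARCA4 and ARID1B windows are counted but not reported here.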

Additional observations from a re-analysis of the deposited data

How the results depend on the processing

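The counts of gained and lost regions depended most on the lists. With the stricter threshold 3 H3K27ac regions were lost, and with each library left out in turn the gained count ranged from 21 to 61 and the lost count from 9 to 44, since a region then needs only the remaining list of that arm. For H3K4me3 the lost count was 0 with equal numbers of peaks and with the 50% overlap, and it ranged from 1 to 7, and the gained count from 0 to 1, with a library left out. The number of BAF genes with ETS1 in both siFLI1 lists was 1 with equal numbers of peaks, and 4 in list 2 alone or 3 in list 1 alone. The members called by H3K27ac covered length ranged from 1 (without either siFLI1 library) to 4 with a library left out (the lone library of an arm is then assumed to vary like the others), and by H3K4me3 covered length were 2 without centring. Regions called by H3K27ac height ranged from 5 to 12 and by H3K4me3 height from 4 to 7 with a library left out, and the latter were 3 without centring. The log2 ratio of summed covered length over the members was 0.183 (SD within arms 0.056) for H3K27ac and -0.105 (0.052) for H3K4me3, beside 0.148 and -0.098 over the whole lists, and ranged from 0.133 to 0.232 and from -0.145 to -0.066 with a library left out.

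The replicate block changed no call: 3 and 0 members were called by covered length and 10 and 7 regions by height. Same-numbered libraries deviated together by a correlation of 0.025 (H3K27ac) and 0.001 (H3K4me3).

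Over all genes, the called count moved past 1.5 times for H3K27ac covered length without a siFLI1 library (1119 and 1097 against 2388) and for H3K4me3 over gene bodies (672 against 1330) or without a siNEG library (768 and 699). Over all regions it did so without a siFLI1 library (4180 and 4273 against 7044 for H3K27ac, 2915 and 2840 against 4419 for H3K4me3) and without centring for H3K4me3 (2861).

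Values that changed sign were not called in the fit reported above. For covered length without centring they were SMARCA4 (0.03) and SMARCC2 (0.04) in H3K27ac and SMARCA4 (-0.09) in H3K4me3, and over gene bodies SMARCA4 (-0.05) and SMARCE1 (0.01) in H3K4me3. With a library left out, covered length ranged from -0.06 to 0.27 for SMARCA2 in H3K27ac, and in H3K4me3 from -0.09 to 0.12 for SMARCA4, -0.12 to 0.01 for SMARCC2, -0.28 to 0.11 for SMARCE1 and -0.11 to 0.09 for ARID1A. Promoter height then ranged from -0.26 to 0.16 for SMARCA2, -0.26 to 0.05 for SMARCA4 and -0.16 to 0.07 for SMARCC1 in H3K27ac, and from -0.08 to 0.03 for SMARCB1 and -0.01 to 0.00 for SMARCD1 in H3K4me3. The cause of these changes was not tested.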
